A study of Mus musculus with 6 samples.

Results

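The vesicular and plasma membrane transporters of glutamate and GABA were followed through the forebrain transcriptome of mice exposed to acute water avoidance stress (WAS). The 8 genes were chosen by name, as the transporters Slc17a6, Slc17a7, Slc17a8, Slc32a1, Slc1a1, Slc1a2, Slc1a3 and Slc6a11, among 23282 entries in the count tables, and all 8 were measured in every library. Adult male C57BL/6J mice aged 8 to 10 weeks stood for 1 h on a platform surrounded by water (WAS), or for 1 h on the same platform in a container without water (control). No genetic change or drug was involved, and all mice were killed directly afterwards. The RNA of a single hemisphere of the forebrain, without olfactory bulbs and cerebellum, gave 1 library per mouse, with 3 libraries labelled WAS and 3 labelled control. The read counts came from QuantSeq, which reads transcripts at their 3′ end, beside the poly(A) tail.

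The headings of the count columns and the sample labels did not use the same letters. Libraries labelled WAS had headings that began with WC, and those labelled control had headings that began with WS. Groups follow the sample labels throughout, and each direction below would turn round if the labels were exchanged.

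Neurons that release glutamate load it into synaptic vesicles through VGLUT1 (Slc17a7), VGLUT2 (Slc17a6) or VGLUT3 (Slc17a8), and inhibitory neurons load GABA and glycine through VGAT (Slc32a1). VGLUT1 prevails in cortex and hippocampus, and VGLUT2 in thalamus, hypothalamus and brain stem. Transporters of the plasma membrane then clear the transmitter. GLT-1 (Slc1a2) and GLAST (Slc1a3) of astrocytes take up most extracellular glutamate, EAAC1 (Slc1a1) does so in neurons, and GAT3 (Slc6a11) takes up GABA into astrocytes.

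Total counts lay between 9248520 and 10502029 per library. Neurod2 and Rorb, the most abundant of 14 cortical and hippocampal markers, were present in every library. Libraries WAS 1 and WAS 3 stood apart from WAS 2 and the 3 control libraries in regional markers. The summed level of 12 markers of the thalamus was 484 CPM (counts scaled to the library total) in WAS 1 and 384 CPM in WAS 3, against 163 in WAS 2 and 124 to 183 in the control libraries. The sum of 16 markers of midbrain and hindbrain was 104 and 167 CPM in WAS 1 and WAS 3, against 30.9 in WAS 2 and 24.4 to 29.6 in control. The sum of 12 markers of the striatum was lowest in the same 2 libraries, at 231 and 480 CPM, against 2358 in WAS 2 and 1204 to 1646 in control. For the members that differed between groups, the log2 fold change is therefore given with and without them.

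Transcripts of the astrocytic glutamate transporters were the most abundant, ahead of those of the vesicular transporters. Levels in CPM were not divided by transcript length, since 3′ end sequencing counts each transcript near its end. Slc1a2 came first with 2760 ± 102 CPM (mean ± SD, n = 6 libraries), followed by Slc1a3 with 533 ± 37.8 CPM. Slc17a7, the leading vesicular gene, had 265.5 ± 32.4 CPM. Slc32a1 had 147 ± 31.2 CPM and Slc6a11 147 ± 71.9 CPM. Lower in the order came Slc17a6 with 71.6 ± 63.4 CPM and Slc1a1 with 53.3 ± 4.49 CPM. Slc17a8, whose protein marks small groups of neurons, closed it with 3.47 CPM, between 1.09 and 5.84 CPM over the libraries.

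Neighbours in this order were compared by their ratio within each library, over 7 pairs. The pairs came from the order in the same 6 libraries, so the p-values below are no independent test of it. Slc1a2 exceeded Slc1a3 by a geometric mean of 5.18-fold, Slc1a3 exceeded Slc17a7 by 2.02-fold, and Slc17a7 exceeded Slc32a1 by 1.82-fold, each in 6 of 6 libraries. Slc1a1 exceeded Slc17a8 by 17.2-fold in 6 of 6 libraries. Each of these 4 ratios had an exact sign-flip permutation p = 0.03125, two-sided, the smallest that 6 libraries allow (adjusted p = 0.04375 over the 7 pairs). Slc32a1 and Slc6a11 could not be ordered (ratio 1.08, higher in 4 of 6 libraries, exact permutation p = 0.75, adjusted 0.875). Slc17a6 and Slc1a1 could not be ordered either (ratio 0.991, Slc17a6 higher in 2 of 6 libraries, exact permutation p = 1.0, adjusted 1.0). Slc6a11 exceeded Slc17a6 within 6 of 6 libraries by 2.54-fold (exact permutation p = 0.03125, adjusted 0.04375), although the ranges of the 2 genes over the libraries overlapped.

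The members differed widely in how much they varied between mice. Between the lowest and the highest of the 6 libraries the level of Slc1a2 differed by 1.10-fold, that of Slc1a3 by 1.23-fold, that of Slc1a1 by 1.27-fold and that of Slc17a7 by 1.33-fold. The same measure was 1.74-fold for Slc32a1, 3.04-fold for Slc6a11, 5.34-fold for Slc17a8 and 6.21-fold for Slc17a6. Among the 3 WAS libraries the SD of Slc17a6 on the log2 scale exceeded that of 99.8% of the genes with a mean of at least 10 CPM, whereas the SD of Slc1a2 exceeded that of 8.15% of them. Among the 3 control libraries the SD of Slc17a6 exceeded that of 90.9% of these genes. Its coefficient of variation was 64.8% in WAS and 18.4% in control.

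**Figure D1:**
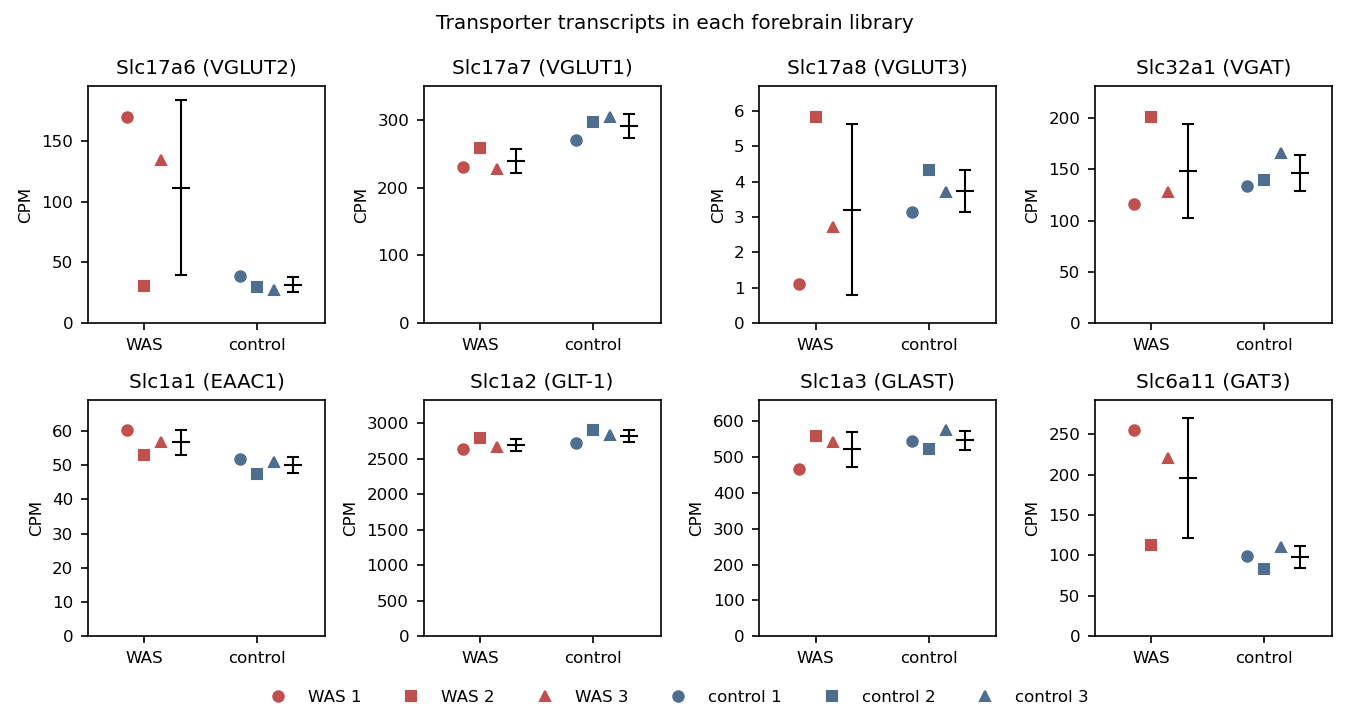
Level of each transporter gene in CPM (vertical axis, linear, from 0) in the 3 libraries labelled WAS (red) and the 3 labelled control (blue), with circles, squares and triangles for replicates 1, 2 and 3 and black bars for the mean ± SD of each group. Slc17a6 and Slc6a11 are high in WAS 1 and WAS 3 only, at 170 and 134 CPM and at 255 and 221 CPM, while WAS 2 lies at 30.7 and 112 CPM, beside the control libraries.

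The question of the design, whether transcripts differed between mice with and without 1 h of WAS, was put to the quasi-likelihood test in edgeR for 15239 genes. An unadjusted p under 0.05 was reached by 3 of the 8 members, with Slc17a6 and Slc6a11 higher and Slc17a7 lower in WAS. Of all genes tested 7.24% reached it, 3.85% higher and 3.40% lower in WAS. A fold change of at least 1.5 in addition, the size the study used for differentially expressed genes, was reached by Slc17a6 and Slc6a11, against 2.49% of all genes. After Benjamini-Hochberg adjustment in edgeR 0 of the 8 members, and 0% of all genes, passed 0.05. The smallest adjusted p of any gene was 0.477. DESeq2 also called 0 of the 8 members and 22 of all genes, or 0.144%. The median log2 fold change of the members was -0.061 with 3 of 8 above 0, beside 0.00088 for all genes tested. Their median size regardless of direction was 0.20, beside 0.13 for all genes. Without WAS 2, 5 of the 8 members reached an unadjusted p under 0.05, against 13.7% of all genes. Without WAS 1 and WAS 3, 1 of the 8 reached it, against 5.34% of all genes. The p-values measure the spread between 3 mice per group.

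**Figure D2:**
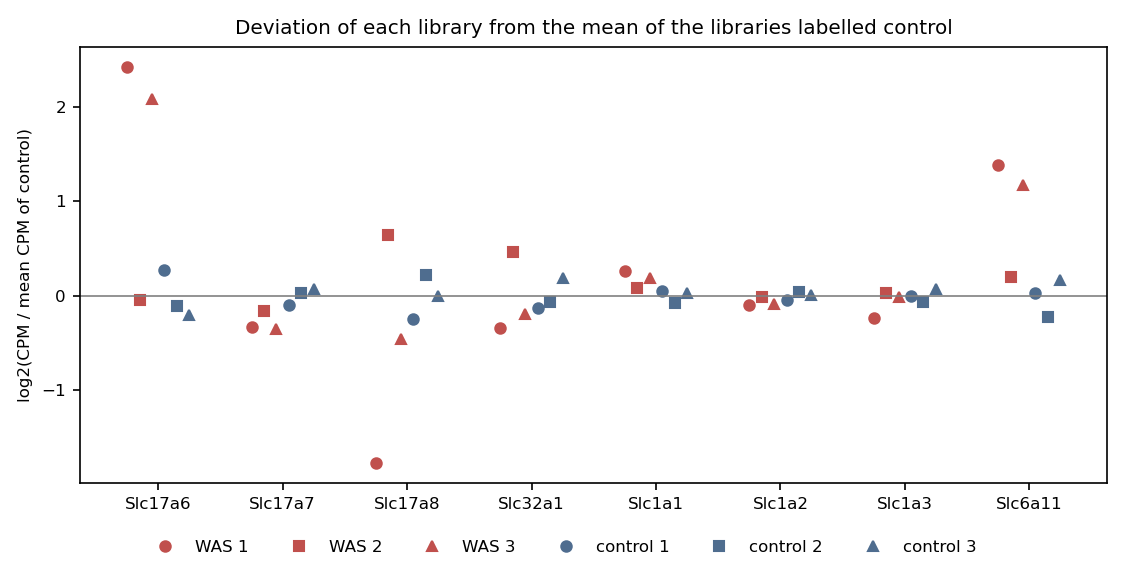
Deviation of each library from the mean of the control libraries, as log2 of the ratio of CPM (vertical axis), for the 8 members (horizontal axis), with WAS in red, control in blue and symbols for replicates. WAS 1 and WAS 3 lie at 2.42 and 2.08 for Slc17a6 and at 1.38 and 1.17 for Slc6a11, where WAS 2 lies at -0.043 and 0.20, and the 6 libraries stay between -0.10 and 0.040 for Slc1a2.

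Slc17a6, which encodes VGLUT2, showed the largest difference among the members. Its counts were 1710, 284 and 1339 in WAS 1, 2 and 3 and 402, 304 and 273 in control 1, 2 and 3. WAS 1 and WAS 3 were high, and WAS 2 lay within the range of the control libraries, so that the groups overlapped. The mean was 112 ± 72.3 CPM in WAS and 31.6 ± 5.83 CPM in control (SD, n = 3 each). The log2 fold change was 1.78 (SE 0.44, edgeR, adjusted p = 0.477). Without WAS 2 it was 2.23 with an adjusted p of 1.13e-06 in edgeR, in a comparison where 3.22% of all genes passed 0.05. Without WAS 1 and WAS 3 it was -0.083 (edgeR, adjusted p = 0.985), with the remaining WAS library assumed to vary like the controls. On quantile-normalized values in limma the log2 fold change of 1.47 no longer passed an unadjusted 0.05 (limma, adjusted p = 0.833).

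Slc17a7, which encodes VGLUT1, was lower in WAS by a smaller and more even amount. Its counts were 2323, 2403 and 2283 in WAS 1, 2 and 3 and 2845, 3090 and 3045 in control 1, 2 and 3. All 3 WAS libraries lay below all 3 control libraries, as did 3.76% of all genes tested. The mean was 239.8 ± 17.4 CPM in WAS and 291 ± 18.0 CPM in control (SD, n = 3 each). The log2 fold change was -0.32 (SE 0.090, edgeR, adjusted p = 0.514). WAS 2 was the highest of the WAS libraries at 259.8 CPM, next to control 1 at 270.9 CPM. Without WAS 1 and WAS 3 the log2 fold change was -0.21 and did not pass (edgeR, adjusted p = 0.951). Without WAS 2 it was -0.38 and passed adjustment in edgeR (adjusted p = 0.0324).

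Slc17a8, which encodes VGLUT3, had the fewest counts of the members, with 11, 54 and 27 in WAS 1, 2 and 3 and 33, 45 and 37 in control 1, 2 and 3. The lowest and the highest library were both labelled WAS. The log2 fold change was -0.26 (SE 0.47, edgeR, adjusted p = 0.954). It was 0.15 without WAS 1 and -1.01 without WAS 2 (past an unadjusted 0.05 in edgeR, adjusted p = 0.288), so that the direction rested on single libraries.

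The 3 vesicular glutamate transporters thus made up different mixtures in different mice. Slc17a6 took 42.3% of their summed counts in WAS 1 (95% Wilson interval 40.8 to 43.8) and 36.7% in WAS 3 (35.2 to 38.3). It took 10.4% in WAS 2 (9.28 to 11.6). In control 1, 2 and 3 its share was 12.3% (11.2 to 13.4), 8.84% (7.94 to 9.84) and 8.14% (7.26 to 9.11). The interval of WAS 2 overlapped those of control 1 and control 2. These intervals cover counting error only, since the counts hold no molecular identifiers. The ratio of Slc17a6 to Slc17a7, which does not depend on scaling, was 0.736, 0.118 and 0.587 in WAS 1, 2 and 3 and 0.141, 0.0984 and 0.0897 in control 1, 2 and 3. On the log2 scale the ratio was 1.79 higher in WAS (exact two-sided permutation p = 0.2, adjusted p = 0.6 over 3 ratios), in a design whose smallest p is 0.1. The summed level of the 3 genes was 355 ± 53.5 CPM in WAS and 327 ± 12.6 CPM in control (SD, n = 3 each).

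**Figure D3:**
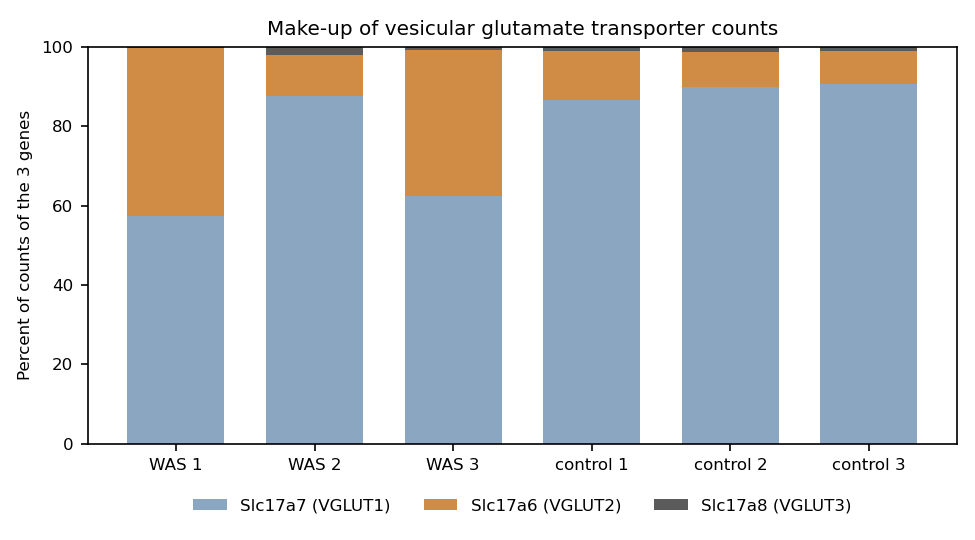
Percent of the summed counts of the 3 vesicular glutamate transporters (vertical axis, 0 to 100) taken by Slc17a7 (blue), Slc17a6 (orange) and Slc17a8 (grey) in each of the 6 libraries (horizontal axis). The Slc17a6 share is 42.3% in WAS 1 and 36.7% in WAS 3, and between 8.14% and 12.3% in the other 4 libraries.

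Slc32a1, the vesicular transporter of inhibitory neurons, had 1166, 1861 and 1280 counts in WAS 1, 2 and 3 and 1401, 1452 and 1659 counts in control 1, 2 and 3. WAS 2 was the highest library and WAS 1 and WAS 3 the lowest, on either side of the controls. The means were 148 ± 46.1 CPM in WAS and 147 ± 17.4 CPM in control (SD, n = 3 each), with a log2 fold change of -0.020 (SE 0.18, edgeR, adjusted p = 0.992). The near equality of the means hid opposite deviations. Without WAS 2 the log2 fold change was -0.30 (edgeR, adjusted p = 0.200), and with WAS 2 as the only WAS library it was 0.42 (edgeR, adjusted p = 0.655), both past an unadjusted 0.05. The ratio of the summed vesicular glutamate transporters to Slc32a1 was 3.47, 1.47 and 2.85 in WAS 1, 2 and 3 and 2.34, 2.37 and 2.02 in control 1, 2 and 3. The WAS libraries lay on both sides of the control range, and the difference was 0.13 on the log2 scale (exact two-sided permutation p = 0.8, adjusted p = 0.8).

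Among the plasma membrane transporters, Slc1a2 (GLT-1) had 26554, 25868 and 26583 counts in WAS 1, 2 and 3 and 28668, 30114 and 28281 counts in control 1, 2 and 3. The groups overlapped after scaling. The means were 2699 ± 85.7 CPM in WAS and 2822 ± 86.3 CPM in control (SD, n = 3 each), and the log2 fold change was -0.10 (SE 0.071, edgeR, adjusted p = 0.828). Slc1a2 held the same rank in every library, so that quantile normalization left no difference for it (log2 fold change 0.0).

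Slc1a3 (GLAST) had 4681, 5150 and 5391 counts in WAS 1, 2 and 3 and 5715, 5411 and 5722 counts in control 1, 2 and 3. WAS 1 was the lowest library at 465 CPM, and the other 5 lay between 521 and 573 CPM. The log2 fold change was -0.11 (SE 0.090, edgeR, adjusted p = 0.878). The ratio of Slc1a2 to Slc1a3, both of astrocytes, was between 4.93 and 5.67 in WAS and between 4.94 and 5.57 in control. It differed by 0.0087 on the log2 scale (exact two-sided permutation p = 0.8, adjusted p = 0.8). Slc1a2 made up between 81.7% and 83.6% of the counts of the 3 Slc1a genes in the 6 libraries.

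Slc1a1 (EAAC1), the neuronal glutamate transporter, had 605, 490 and 567 counts in WAS 1, 2 and 3 and 544, 492 and 509 counts in control 1, 2 and 3. On the CPM scale the WAS libraries, at 53.0 to 60.1, lay above the control libraries, at 47.4 to 51.8. Such a separation was seen for 8.42% of all genes. The log2 fold change of 0.14 (SE 0.095) did not pass the test (edgeR, adjusted p = 0.818).

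Slc6a11, the GABA transporter of astrocytes, was higher in WAS and followed Slc17a6. Its counts were 2563, 1040 and 2205 in WAS 1, 2 and 3 and 1048, 869 and 1099 in control 1, 2 and 3. WAS 1 and WAS 3 were high, at 255 and 221 CPM. WAS 2, at 112.5 CPM, was barely above the highest control library, at 110.1 CPM, so that the groups did not overlap. All WAS libraries lay above all control libraries in 8.42% of all genes tested. The mean was 196 ± 74.3 CPM in WAS and 97.9 ± 13.3 CPM in control (SD, n = 3 each), with a log2 fold change of 0.96 (SE 0.23, edgeR, adjusted p = 0.477). Without WAS 2 it was 1.24 with an adjusted p of 3.70e-05 in edgeR. Without WAS 1 and WAS 3 it was 0.16 (edgeR, adjusted p = 0.959). In bulk tissue, fewer cells of a type and less RNA per cell cannot be told apart.

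Positions of the 3 members that passed the unadjusted test are from GENCODE M21 on GRCm38. Slc17a6 spans chr7:51622006-51671119 and Slc17a7 chr7:45163949-45176142, and Slc6a11 spans chr6:114131241-114249952, all 3 on the plus strand. To show what lies before the starts of the pair that varied together and of the member that varied the other way, the 250 bases before the RefSeq start are printed 5′ to 3′ in GRCm38.p6, plus strand. The windows are chr7:51621580-51621829, chr6:114130991-114131240 and chr7:45163671-45163920, the first being 1 of 2 RefSeq starts of Slc17a6. Capitals mark GC boxes (GGGCGG or, on the other strand, CCGCCC), of which 2 in the last sequence share a base.
Slc17a6: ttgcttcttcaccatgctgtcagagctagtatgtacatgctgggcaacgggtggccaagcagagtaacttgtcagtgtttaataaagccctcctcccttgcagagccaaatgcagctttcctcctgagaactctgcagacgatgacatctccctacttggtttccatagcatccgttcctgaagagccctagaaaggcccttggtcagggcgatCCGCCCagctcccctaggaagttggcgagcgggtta
Slc6a11: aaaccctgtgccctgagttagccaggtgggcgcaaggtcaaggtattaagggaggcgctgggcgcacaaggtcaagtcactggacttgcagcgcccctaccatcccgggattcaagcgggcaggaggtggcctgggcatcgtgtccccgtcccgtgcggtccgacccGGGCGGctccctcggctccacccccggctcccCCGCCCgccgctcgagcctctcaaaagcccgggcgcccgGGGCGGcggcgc
Slc17a7: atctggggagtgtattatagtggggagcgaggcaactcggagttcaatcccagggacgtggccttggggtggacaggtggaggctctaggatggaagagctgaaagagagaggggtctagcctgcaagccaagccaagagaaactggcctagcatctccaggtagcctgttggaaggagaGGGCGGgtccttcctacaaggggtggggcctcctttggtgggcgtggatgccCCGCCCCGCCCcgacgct
The Slc17a6 window held 1 GC box, and those of Slc6a11 and Slc17a7 held 3 each. A GC box was present in 32.7% of 32851 RefSeq windows of this length. The GC content was 53.2% for Slc17a6, 71.2% for Slc6a11 and 61.2% for Slc17a7, beside a median of 52.4% over all windows. CpG dinucleotides numbered 7, 25 and 9 in the same order. The CCAAT box (CCAAT), the TATA box (TATAAA) and the cAMP response element (TGACGTCA), sought on both strands and present in 33.8%, 12.4% and 1.55% of all windows, were not found in these 3 windows. The window before the other RefSeq start of Slc17a6, chr7:51624387-51624636, had a GC content of 41.2% and held 0 GC boxes. The last 500 bases of the longest coding transcript of each of the 8 members shared no run of 50 bases with another gene, which bears on 3′ counts that include multiple alignments.

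WAS 1 and WAS 3 were at the same end of the order in most members, a pattern noticed after the values were seen. They were the 2 highest of the 6 libraries for Slc17a6, Slc6a11 and Slc1a1, as for 14.3% of all genes. For Slc17a7, Slc17a8, Slc32a1 and Slc1a2 they were the 2 lowest, as for 9.62% of all genes. The exception among the 8 members was Slc1a3. Either pattern was found in 24.0% of all genes tested. The summed level of the 8 members nevertheless lay between 3871 and 4071 CPM in all 6 libraries, of which Slc1a2 formed the greater part.

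Regional markers moved with these differences. Tcf7l2 and Ntng1, the most abundant of the thalamic markers and a transcription factor and an axonal adhesion protein, had 234 and 117 CPM in WAS 1, 173 and 80.8 CPM in WAS 3, and 42.0 and 35.4 CPM in WAS 2. In the control libraries Tcf7l2 lay between 20.6 and 38.4 CPM and Ntng1 between 32.9 and 37.4 CPM. Of the 12 thalamic markers 11 had a log2 fold change above 0 (median 0.84). An unadjusted edgeR p under 0.05 was reached by 6 of the 12, all higher in WAS, beside 3.85% of all genes tested. The marker lists were chosen with earlier results of these data known. The 16 midbrain and hindbrain markers are given by level only. No count of markers is given for this list, since markers such as En1 passed the filter on low counts only through WAS 1 and WAS 3. Ddc and Slc18a2, the most abundant of the 16 and needed to make and store monoamines, had 27.4 and 11.8 CPM in WAS 1 and 45.7 and 27.5 CPM in WAS 3. Ddc lay at 14.1 CPM in WAS 2 and between 8.12 and 9.44 CPM in control. Slc18a2 lay at 10.4 CPM in WAS 2 and between 9.83 and 10.3 CPM in control, little below its level in WAS 1. The glycine transporter gene Slc6a5 was at 0 in all libraries. En1, a transcription factor of the midbrain chosen here after its values were seen, had 124, 1 and 157 counts in WAS 1, 2 and 3 and 0 in each control library. Hypothalamus and habenula also express VGLUT2. The 14 hypothalamic markers, led by Oxt and Hdc, summed to between 15.9 and 33.4 CPM in WAS and between 5.49 and 61.9 CPM in control, where Oxt alone gave 44.6 CPM of the highest sum. The 7 habenular markers, led by Nwd2 and Lrrc55, summed to between 103 and 106 CPM in WAS and between 96.7 and 121 CPM in control. Nwd2 carried most of this sum, with 67.4 to 78.9 CPM per library. The habenular factor Pou4f1, named after its values were seen, had 6.85, 0.108 and 3.41 CPM in WAS 1, 2 and 3 and 4.09, 0.385 and 1.40 CPM in control 1, 2 and 3. In both lists 0 markers reached an unadjusted edgeR p under 0.05. The part of these regions in the Slc17a6 and Slc6a11 differences was not tested.

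The markers of regions rich in VGLUT1 or in inhibitory projection neurons varied less evenly. The 14 cortical and hippocampal markers summed to between 1210 and 1235 CPM in WAS and between 1171 and 1482 CPM in control. At an unadjusted edgeR p under 0.05, 1 marker was higher and 3 were lower in WAS, beside 3.85% and 3.40% of all genes tested. The 10 pan-neuronal markers, led by Syt1 and Snap25 of the vesicle fusion machinery, summed to between 7292 and 7474 CPM in WAS and between 7688 and 8396 CPM in control. Ppp1r1b and Penk, which mark striatal projection neurons, had 40.1 and 23.8 CPM in WAS 1 and 116 and 86.3 CPM in WAS 3. In WAS 2 they had 602 and 423 CPM, above every control library. The control libraries lay between 275 and 413 CPM for Ppp1r1b and between 206 and 251 CPM for Penk. Of 12 striatal markers 10 were tested, 0 with a log2 fold change above 0 (median -0.54), and 0 reached an unadjusted edgeR p under 0.05. For 10 of the 12 WAS 1 and WAS 3 were the 2 lowest libraries, as for 9.62% of all genes tested. That order was also seen in Slc32a1, and Gpr6 was at 0 in all libraries. The 12 markers of GABAergic interneurons, led by Sst and Npy, summed to between 581 and 665 CPM in WAS and between 592 and 661 CPM in control. The part of striatal and cortical markers in the Slc17a7 and Slc32a1 values was not tested.

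**Figure D4:**
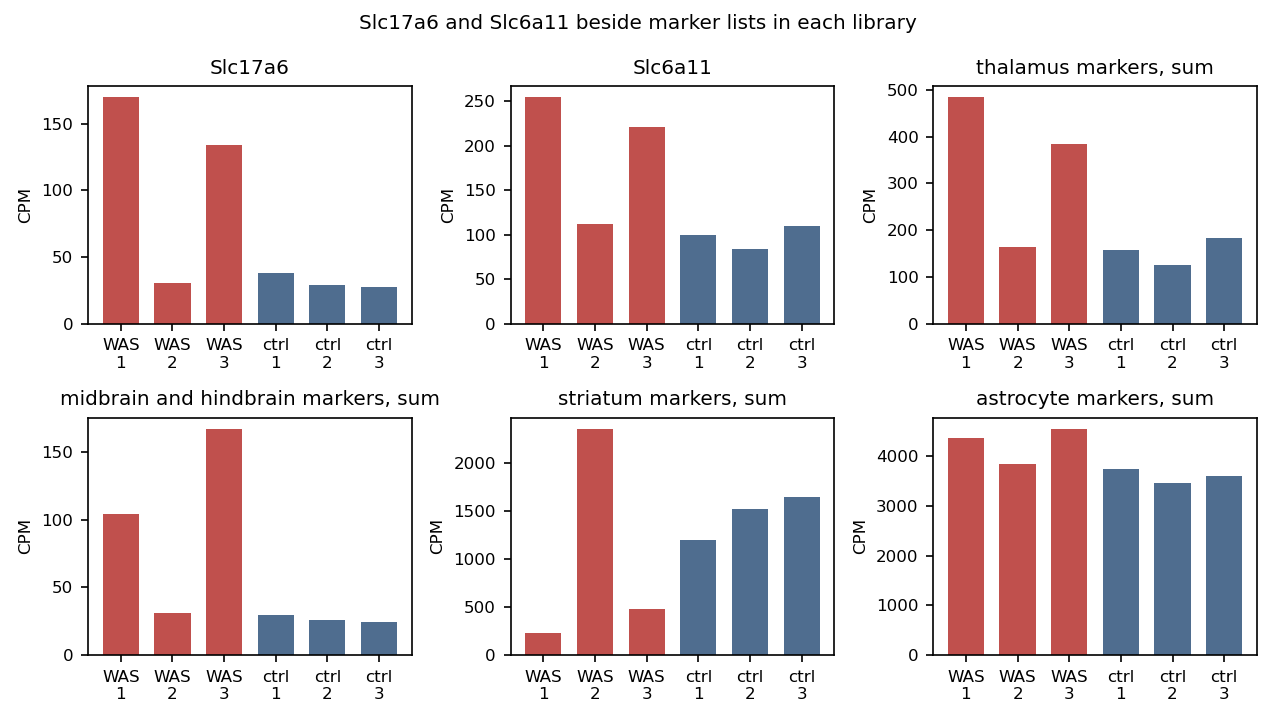
Levels in CPM (vertical axes, linear, from 0) of Slc17a6, Slc6a11 and the summed markers of thalamus, midbrain and hindbrain, striatum and astrocytes in each of the 6 libraries (WAS red, control blue). WAS 1 and WAS 3 are the highest libraries in 5 panels and the lowest in the striatal panel, at 231 and 480 CPM.

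Among glial markers, the 14 astrocyte markers summed to 4360 and 4551 CPM in WAS 1 and WAS 3, to 3849 CPM in WAS 2 and to between 3464 and 3734 CPM in control. Aldoc, a glycolytic enzyme and among the most abundant of them, had 816 CPM in WAS 1 and 692 CPM in WAS 2. Of the 14 markers 13 had a log2 fold change above 0 (median 0.20). An unadjusted edgeR p under 0.05 was reached by 5 of them, all higher in WAS, beside 3.85% of all genes tested. The astrocytic transporters did not share one direction. Slc6a11 had a log2 fold change of 0.96, and Slc1a2 and Slc1a3, which did not pass the test, had -0.10 and -0.11. For Slc1a2 WAS 1 and WAS 3 were the lowest libraries, whereas they were the highest for 10 of the 14 astrocyte markers. They were the 2 highest for 14.3% of all genes tested. The 7 markers of meningeal fibroblasts summed to 191 and 200 CPM in WAS 1 and WAS 3, to 139 CPM in WAS 2 and to between 88.7 and 149 CPM in control. Of the 6 tested all had a log2 fold change above 0 (median 0.46), and 1 reached that p. The 5 blood markers summed to 1694 and 2208 CPM in WAS 1 and WAS 3, to 1308 CPM in WAS 2 and to between 1192 and 1567 CPM in control. All 5 had a log2 fold change above 0 (median 0.36), and 0 reached that p. WAS 1 and WAS 3 were thus the 2 highest libraries in both sums, as for Slc17a6 and Slc6a11. The lists of oligodendrocytes, microglia, endothelium and choroid plexus held 0 genes past it, with choroid plexus markers ranging from 308 to 1789 CPM over the libraries. The part of other cell types in these values was not tested.

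The genes nearest to a member were sought by the root mean square difference of log2 CPM, each gene centred on its own mean over the 6 libraries, among 9399 other genes with a mean of at least 10 CPM. This describes likeness over 6 libraries that share depth and tissue. For Slc17a6 the 5 nearest were Fibcd1 (0.24), Cpne7 (0.29), Tcf7l2 (0.37), Ntng1 (0.40) and Dcn (0.43). Tcf7l2 and Ntng1 are in the thalamic list, Fibcd1 in the cortical and hippocampal list and Dcn, a proteoglycan, in the list of meningeal fibroblasts. Slc6a11 came 11th, at 0.54. Fibcd1 had 259, 54 and 206 counts in WAS 1, 2 and 3 and 65, 45 and 65 counts in control 1, 2 and 3, which is the order of high and low WAS libraries seen in Slc17a6.

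This distance is not scaled to a gene's own spread, so members with less spread had closer neighbours. For Slc17a7 these were Igsf21, Dpf1, Pdzd9, Ppp2r2c and Prkcz, at 0.035 to 0.044. For Slc32a1 they were Klhl13 (0.027), Foxp2 (0.063), Prkar2b (0.082), Cyld (0.083) and Bcr (0.086). Klhl13, like Slc32a1, was highest in WAS 2 with 658 counts and lowest in WAS 1 with 412 counts. For Slc1a2 the nearest were Akr1a1, Emc2, Ctdnep1, Nlgn1 and Atp6v1e1, at 0.017 to 0.023. For Slc1a3 they were Rbm27, Tbpl1, Msrb2, Cst3 and G3bp1, at 0.027 to 0.029. Slc1a2 and Slc1a3 were 0.083 apart, which placed Slc1a2 378th among the genes nearest to Slc1a3.

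Of the other genes that make, convert or move glutamate and GABA, 25 were listed and 24 tested. An unadjusted edgeR p under 0.05 was reached by 4 of the 24, with 3 higher and 1 lower in WAS, beside 7.24% of all genes, and 0 passed adjustment. The median log2 fold change was 0.046, with 16 of 24 above 0. Glud1, glutamate dehydrogenase, had 191 to 197 CPM in WAS and 153 to 171 CPM in control (log2 fold change 0.22, SE 0.078, edgeR, adjusted p = 0.585). Slc7a11, the cystine and glutamate exchanger, had 41.5 to 53.5 CPM in WAS and 36.1 to 38.9 CPM in control (0.26, SE 0.12, edgeR, adjusted p = 0.685). Slc6a13, the GABA transporter GAT2, had 52, 52 and 59 counts in WAS and 29, 23 and 49 in control (0.72, SE 0.32, edgeR, adjusted p = 0.683). In these 3 genes all WAS libraries lay above all control libraries, WAS 2 included, as in 8.42% of all genes tested. The 3 were picked by their unadjusted p in the same libraries, which favours such a separation.

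Leaving out WAS 3, control 1 or control 2 left 1 of the listed genes past an unadjusted p of 0.05, beside 4.29%, 4.97% and 4.09% of all genes tested. Glul, glutamine synthetase of astrocytes, had 1565 ± 90.2 CPM in WAS and 1466 ± 89.6 CPM in control (SD, n = 3 each, log2 fold change 0.058, edgeR, adjusted p = 0.941). The GABA-synthesizing enzymes Gad1 and Gad2 had log2 fold changes of -0.047 (edgeR, adjusted p = 0.968) and 0.11 (edgeR, adjusted p = 0.941). Gad2 was lowest in WAS 1 (145 CPM) and highest in WAS 2 (228 CPM), the ends of the order that Slc32a1 also had.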

How the data were processed

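Forebrain RNA of 3 mice labelled WAS and 3 labelled control was analysed, 1 library per mouse. The authors aligned QuantSeq reads with Bowtie2 and made the deposited read counts per gene from unique and multiple alignments with Bedtools. The submitters' processing notes name mm10 and bedtools, and versions are not given in the sources used here. Total counts were 9248520 to 10502029 per library, and 44 of the 23282 entries repeat a symbol.

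CPM are counts scaled to the library total. Counts of 15239 genes, with a mean log2(quantile-normalized count + 1) of at least 2, were scaled by TMM and tested in edgeR 4.0.16 (R 4.3.3) by quasi-likelihood, with Benjamini-Hochberg adjustment over all genes tested. Each SE was obtained from the F value, as the log2 fold change over its square root. Alternatives were total-count scaling, DESeq2 1.42.0, limma 3.58.1 on quantile-normalized log2 counts, no filter, filterByExpr, a block for the replicate number, and leaving out single libraries. Leaving out WAS 1 and WAS 3 together, and the order of levels on TMM-scaled CPM, were added after seeing the data.

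The members and lists were chosen with earlier results of these data known. Genes named were the 8 members, Glul, Gad1, Gad2 and cycle genes past an unadjusted p of 0.05, the 2 most abundant genes of each marker list described, and the 5 genes nearest to Slc17a6, Slc17a7, Slc32a1, Slc1a2 and Slc1a3. Upstream sequences are from RefSeq (GRCm38.p6), with windows found for 8 of 8 members. Some genes that this rule gives are not reported here. The metabolomics of the study were not analysed here.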

Additional observations from a re-analysis of the deposited data

How the results depend on the processing

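On quantile-normalized values with limma, 1 member passed the unadjusted p and the 1.5-fold criterion together (Slc6a11), and 2 glutamate and GABA cycle genes passed the unadjusted p, as did 5.7% of all genes. With WAS 1 and WAS 3 both left out, 1 member passed the unadjusted p (Slc32a1), 0 members passed it with the fold criterion, and 2 cycle genes passed it, as did 5.34% of all genes. In that comparison the log2 fold changes of Slc17a6, Slc17a8 and Slc32a1 were -0.083, 0.61 and 0.42, opposite in sign to those with all libraries. With total-count scaling Slc32a1 was at 0.018.

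Leaving out 1 library at a time gave 3 to 5 members past the unadjusted p (5 without WAS 2), 2 to 3 with the fold criterion, 0 to 3 past the adjusted p (3 without WAS 2: Slc17a6, Slc6a11 and Slc17a7), and 1 to 4 cycle genes (1 without WAS 3, control 1 or control 2). Of all genes 4.09% to 13.7% passed the unadjusted p and 0% to 3.22% the adjusted p in these comparisons, the highest shares without WAS 2. The median log2 fold change of the members ranged from -0.14 to 0.11 (0.11 without WAS 1). The log2 fold changes ranged from 1.35 to 2.23 for Slc17a6, -0.38 to -0.28 for Slc17a7, -1.01 to 0.15 for Slc17a8, -0.30 to 0.13 for Slc32a1 and 0.73 to 1.24 for Slc6a11. The group differences of the log2 ratios ranged from 1.29 to 2.61 for Slc17a6 to Slc17a7, -0.054 to 0.062 for Slc1a2 to Slc1a3, and -0.13 to 0.49 for the vesicular glutamate transporters to Slc32a1.

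The samples share replicate numbers, which no label ties to a batch. The deviations of same-numbered samples correlated at 0.0884, 0.115 and 0.101, higher than those of other pairs (-0.0986 to -0.00673). With the replicate number as a block, 49 genes rather than 0 passed the adjusted p, 1 of them a member (Slc6a11). Over 13 alternatives in all, Slc6a11 passed the unadjusted p in 12, Slc17a7 in 12 and Slc17a6 in 11, and the adjusted p in 2, 1 and 1. The adjusted p ranged from 3.70e-05 to 1.00 for Slc6a11, 0.0324 to 1.00 for Slc17a7 and 1.13e-06 to 1.00 for Slc17a6. The cause of these changes was not tested. With 3 mice per group, and 207 counts of Slc17a8 in all, small differences were not detectable.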
